A study of Arabidopsis thaliana with 16 samples.

Results

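An Arabidopsis thaliana line with an insertion labelled to lie in exon 2 of HYPK, called here the exon 2 line, was compared with the wild type (WT) in leaf RNA. The arrays were taken by their sample labels: replicates 1 to 4 of the exon 2 line and replicates 1 to 4 of WT, 8 of the 16 arrays of the study. The other 8 arrays, used only where stated, were 4 of a second HYPK insertion line (exon 1) and 4 of amiNAA10, in which NAA10 is knocked down by an artificial microRNA. Leaves came from untreated soil-grown plants aged 6 weeks, kept in short days (8.5 h light) at 22 °C in the light and 18 °C in the dark. The exon 2 line is labelled as a knockout. The study's description names the HYPK alleles hypk-1 and hypk-3 without saying which has the insertion in exon 2, and each insertion line stands for 1 allele. The labels do not say whether replicates were separate plants, pools or repeat preparations, so p-values reflect only how far these samples spread, and that spread may be technical.

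HYPK is a small protein that binds the N-terminal acetyltransferase complex NatA. NatA adds an acetyl group to the first residue of nascent proteins; NAA10 is its catalytic subunit and NAA15 the subunit that holds it at the ribosome. NAA50 is the catalytic subunit of NatE, an acetyltransferase that also binds NAA15. In Arabidopsis leaves NatA is known for its bearing on growth, drought tolerance and the stability of immune receptors.

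Each value is a log2 expression value of 1 probe set, and the table holds 27826 probe sets. Differences are exon 2 line minus WT on the log2 scale, so that 1 is a doubling, and a probe set was called when limma's p-value, adjusted over all probe sets, was under 0.05. Probe sets of near-identical family members may share signal, and values below about 1.83, the level under which the dimmest 30% of probe sets lie, may understate a change. Leaf is the labelled tissue: the 36 nuclear photosystem and light-harvesting genes averaged 9.17 to 9.80 and the 12 carbon fixation genes 9.71 to 10.30 on the 8 arrays. The 4 root markers averaged 1.46 to 1.65 and the 9 flower markers 1.67 to 2.03. These levels are a description only, since levels of different probe sets cannot be set against each other.

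Replicate 4 of the exon 2 line stood apart from the other 3. It lay at -44.3 on the first principal component of all 16 arrays, which held 46.4% of the variance, while exon 2 replicates 1 to 3 lay between -1.87 and 15.5 and WT between 50.1 and 66.0. Its correlation with the other exon 2 arrays over all probe sets was 0.974 to 0.981, against 0.985 to 0.987 among those 3. Results that rest on it are therefore given with and without it. The exon 1 line was also spread along this component. Its replicates 2 and 3 lay at -32.5 and -27.2, and its replicates 1 and 4 at -0.01 and -5.34.

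The HYPK signal was not called lower in the exon 2 line, and among the transcripts of its partner proteins only that of NAA50 was called. HYPK (AT3G06610) read 5.52, 5.66, 5.38 and 5.04 in exon 2 replicates 1 to 4 and 5.68, 5.75, 5.66 and 5.55 in WT replicates 1 to 4. The groups overlapped, with replicate 4 lowest, and the difference of -0.26 (SE 0.13) was not called (adjusted p = 0.191; -0.14 and 0.522 without replicate 4). The two-sided exact permutation p was 0.0571, or 0.0762 after adjustment over the 4 genes tested this way. Where the probes lie relative to the insertion is not given in the sources used here, so this signal does not check the label. In the exon 1 line HYPK differed from the same WT arrays by -0.94 (SE 0.13, adjusted p = 0.000155).

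NAA10 read 5.06, 4.995, 5.05 and 4.72 in the exon 2 line and 4.89, 5.06, 4.86 and 5.03 in WT, a difference of -0.00 (SE 0.12, adjusted p = 0.987). NAA15 differed by 0.16 (SE 0.10, adjusted p = 0.313), with an exact permutation p of 0.0286, the smallest that 4 arrays against 4 can give, and 0.0571 adjusted over the 4 genes. NAA50 read 4.97, 4.79, 4.92 and 4.79 against 4.98, 5.24, 5.68 and 5.33. Every exon 2 value of NAA50 lay under every WT value, and it fell by 0.44 (SE 0.13, adjusted p = 0.0298; exact permutation p = 0.0286, 0.0571 adjusted). That call ended without exon 2 replicate 2 (adjusted p = 0.0643), exon 2 replicate 4 (0.0843), WT replicate 3 (0.097) or WT replicate 4 (0.0559).

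**Figure D1:**
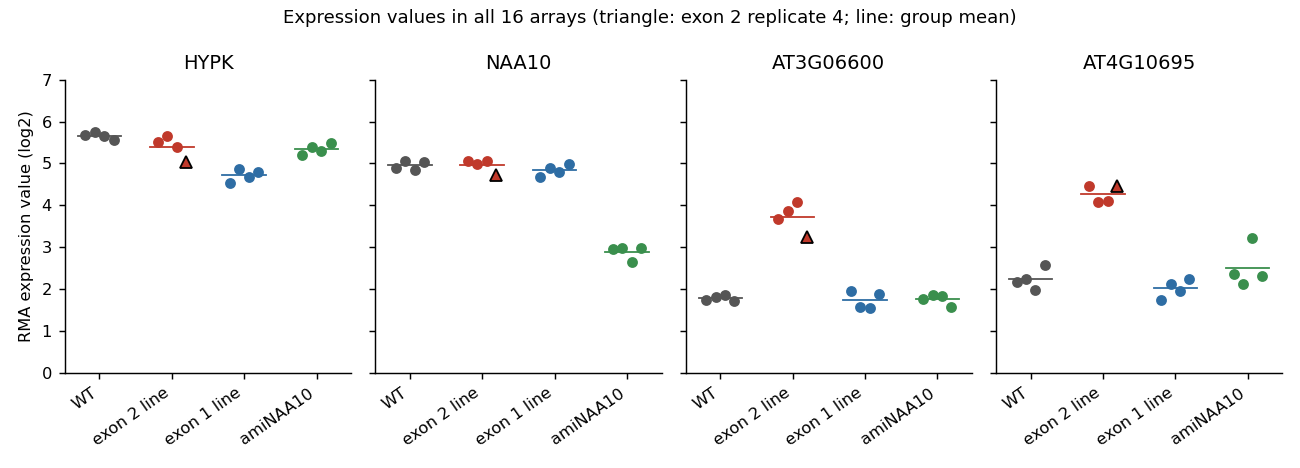
Expression values on the log2 scale in all 16 arrays for HYPK, NAA10, AT3G06600 and AT4G10695, with 1 point per array, a line at each group mean and exon 2 replicate 4 as a triangle. HYPK in the exon 2 line (5.04 to 5.66) overlaps WT (5.55 to 5.75), whereas AT3G06600 (3.25 to 4.09 against 1.71 to 1.85) and AT4G10695 (4.07 to 4.47 against 1.99 to 2.58) lie apart from WT in all 4 exon 2 arrays.

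A pair of loci marked the exon 2 arrays off from every other genotype, replicate 4 included. AT3G06600, the locus next to HYPK in the RefSeq gene order of assembly TAIR10.1, read 3.68, 3.86, 4.09 and 3.25 in the exon 2 line and 1.74, 1.81, 1.85 and 1.71 in WT. It rose by 1.94 (SE 0.15, adjusted p = 3.15e-06), and because the WT mean of 1.78 lies in the dimmest range the change may be larger. In the exon 1 line it averaged -0.04 from WT (adjusted p = 0.89). AT4G10695 read 4.47, 4.07, 4.11 and 4.46 in the exon 2 line and 2.18, 2.23, 1.99 and 2.58 in WT, a rise of 2.04 (SE 0.20, adjusted p = 1.89e-05).

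AT3G06600 and AT4G10695 were also the only probe sets called between both HYPK lines, 2 of 27826 (0.00719%). An unadjusted limma p under 0.05 was reached by 1220 of the 27826, fewer than this threshold passes on average when nothing differs. AT3G06600 was 1.98 higher in the exon 2 line than in the exon 1 line (SE 0.15, adjusted p = 1.23e-05), and AT4G10695 was 2.27 higher (adjusted p = 5.43e-05). Both stayed called with any 1 of the 8 arrays left out. Without exon 2 replicate 4 there were 3 calls (0.0108%), HYPK being the other (0.80 higher than in the exon 1 line, adjusted p = 0.0318; 0.68 and 0.381 with all arrays). Without exon 2 replicate 2 there were also 3, with DD18 at -0.85 (adjusted p = 0.0427). That so few probe sets were called does not show that the lines were alike. AT4G10695 was singled out after its values were seen, and none of the 3 measured loci on either side of it was called against WT, where their differences ran from -0.38 (AT4G10660) to 0.36 (SPT16).

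Among the 8 measured loci on each side of HYPK, 6 were called, where 13.8% of all probe sets were called, 7.03% higher and 6.82% lower. AT3G06590, beyond AT3G06600, read 5.26, 4.96, 4.82 and 4.96 in the exon 2 line against 4.59, 4.67, 4.51 and 4.03, and rose by 0.54 (SE 0.13, adjusted p = 0.0133); its difference from the exon 1 line, 0.77, was not called (adjusted p = 0.228). The Rab escort protein gene REP rose by 0.81 (adjusted p = 0.00219) and the galactokinase gene GALK by 0.62 (adjusted p = 0.0033). RWA2, which acts in the acetylation of wall polymers, fell by 0.53 (adjusted p = 0.00661). REP, GALK and RWA2 differed from WT by 0.95, 0.53 and -0.56 in the exon 1 line, a comparison that shares the WT arrays. AT3G66654 rose by 0.62 (adjusted p = 0.0342), a call that ended without exon 2 replicate 1 (0.0643), exon 2 replicate 4 (0.126), WT replicate 3 (0.0979) or WT replicate 4 (0.0905). In the exon 1 line AT3G66654 differed from the same WT arrays by 0.55 (adjusted p = 0.043). AT3G06620, the neighbour on the other side of HYPK, differed by 0.04 in the exon 2 line (adjusted p = 0.916).

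**Figure D2:**
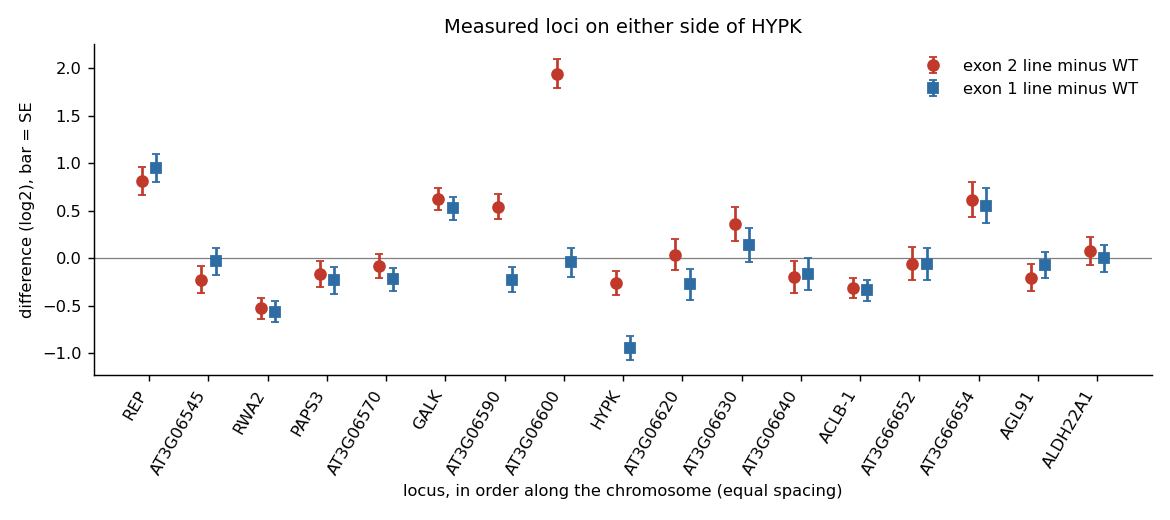
Difference from WT on the log2 scale (with its SE) of the 8 measured loci on each side of HYPK, in chromosome order with equal spacing, for the exon 2 line (circles) and the exon 1 line (squares), which share the WT arrays. AT3G06600 stands at 1.94 in the exon 2 line and -0.04 in the exon 1 line, and HYPK at -0.26 and -0.94.

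Among the gene lists described below, leaves of the exon 2 line had higher transcripts of salicylic acid and immune receptor genes and lower ones of cytokinin response, cell wall and photosystem genes. Over the whole table, 3852 probe sets were called (13.8%), 1955 higher (7.03%) and 1897 lower (6.82%), and 477 and 323 of these differed by at least 2-fold. The median difference of all probe sets was -0.01. Without exon 2 replicate 4, 2097 were called (7.54%), 1117 higher (4.01%) and 980 lower (3.52%). Of those, 2053 were also called with it, which is 53.3% of the calls made with it and 97.9% of those made without it, and all had the same sign. In 2603 of the 3852, replicate 4 was the exon 2 array furthest from WT. The groups did not overlap for 4787 probe sets (17.2%), with the exon 2 line above WT for 2481 (8.92%) and below it for 2306 (8.29%), and 3168 (11.4%) were both called and free of overlap.

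**Figure D3:**
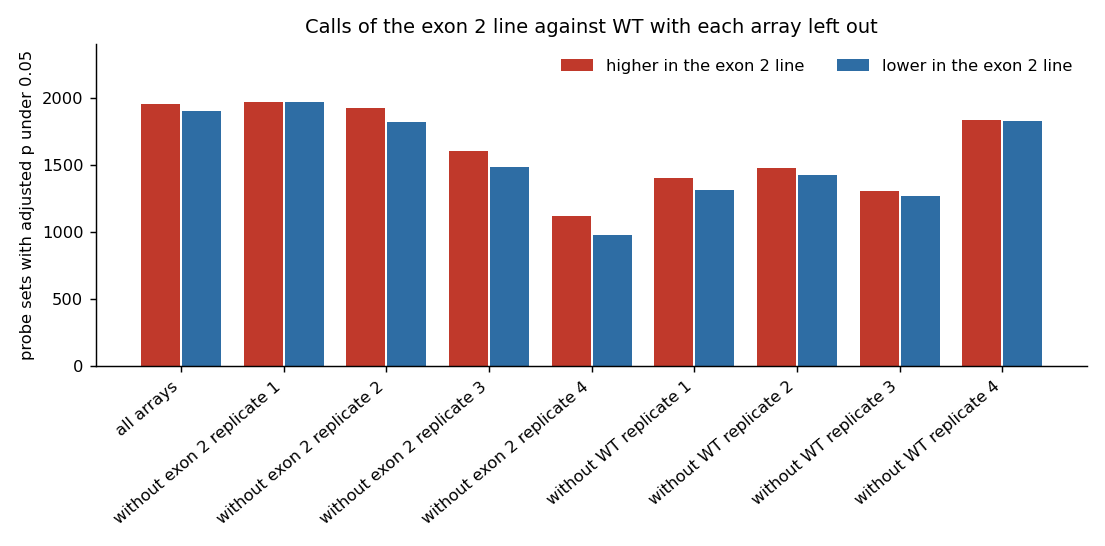
Number of probe sets called higher and lower in the exon 2 line than in WT with all arrays and with each of the 8 arrays left out. The counts are lowest without exon 2 replicate 4, at 1117 higher and 980 lower, against 1955 and 1897 with all arrays.

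The largest rise of all probe sets was that of CAX3 (AT3G51860), a vacuolar calcium/proton exchanger. CAX3 read 8.80, 8.37, 9.27 and 10.32 in the exon 2 line and 3.71, 3.88, 4.11 and 4.33 in WT. It was 36.3-fold higher (5.18 on the log2 scale, SE 0.31, adjusted p = 1.75e-07), with the smallest p of all named genes, and 4.81 higher without replicate 4. Its groups lay more than 4 log2 units apart at their nearest arrays. CHI (AT2G43570), a chitinase-like gene, read 7.36, 7.28, 8.56 and 10.35 against 4.37, 4.47, 3.73 and 4.93, and rose by 4.01 (SE 0.48, adjusted p = 0.000109). Its highest exon 2 array was replicate 4, and no exon 2 array reached down to WT.

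Receptor genes filled much of the rest of the 12 largest rises, which, like the 12 largest falls, were taken among probe sets with a gene symbol, a call and no overlap of the groups. The receptor-like protein genes RLP41 and RLP38 rose by 3.92 and 3.63, while CRK23, CRK7 and CRK6, of the cysteine-rich receptor-like kinases, rose by 3.76, 3.28 and 3.28. CRK23 read 6.14, 5.85, 6.75 and 8.14 against 3.04, 2.89, 3.79 and 2.14. The calmodulin-like gene CML41 rose by 3.63, the cytochrome P450 gene CYP71B23 by 3.35 and GLR2.8, a glutamate receptor-like channel gene, by 3.34. Adjusted p-values of these 8 genes ran from 2.92e-05 (CRK23) to 0.000675 (CRK7), and each call held with any of the 8 arrays left out.

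PR1, the usual marker of salicylic acid output, was the most uneven of the large rises. PR1 read 5.83, 3.41, 5.06 and 9.21 in the exon 2 line and 2.09, 1.84, 2.15 and 3.12 in WT. Exon 2 replicate 2 lay just above WT replicate 4, and replicate 4 of the exon 2 line lay far above the rest. PR1 rose by 3.58 (SE 0.92, adjusted p = 0.0169), and by 2.47 without replicate 4 (adjusted p = 0.0426). PR5, the thaumatin-like protein gene of the same response, read 8.34, 7.69, 7.72 and 10.62 against 5.38, 4.87, 4.97 and 5.21, a rise of 3.48 (SE 0.50, adjusted p = 0.000385).

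CSLA01 (AT4G16590), of the mannan synthase family, had the largest fall of all probe sets. It read 1.52, 2.33, 2.34 and 1.88 in the exon 2 line and 5.73, 4.77, 6.71 and 7.63 in WT. The difference was -4.19 (SE 0.41, adjusted p = 1.63e-05), so that the exon 2 level was 5.47% of WT, and exon 2 replicate 4 lay within the range of its group. EXPB3, a beta-expansin gene, read 4.02, 4.25, 4.28 and 3.13 against 6.82, 6.32, 6.30 and 6.54 and fell by 2.57 (SE 0.23, adjusted p = 7.62e-06). FSD1, an iron superoxide dismutase gene, read 4.92, 4.69, 4.88 and 3.71 against 7.29, 7.17, 7.29 and 7.22. Both groups of FSD1 were narrow apart from exon 2 replicate 4, and it fell by 2.69 (SE 0.28, adjusted p = 2.99e-05; -2.41 without replicate 4).

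The remaining 9 of the 12 largest falls covered several roles. ARR15 and ARR6, type-A response regulators that dampen cytokinin signalling, fell by 2.85 and 1.99. BAM5, a beta-amylase gene, fell by 2.45, the wax gene CER1 by 2.22, and MRD1 by 2.29. VSP1, a jasmonate-responsive storage protein gene, fell by 1.98 (adjusted p = 0.0151), and JMT, whose enzyme methylates jasmonic acid, by 1.88 (adjusted p = 0.000126). The beta-glucosidase gene BGLU1 fell by 1.93 and the carboxypeptidase gene BRS1 by 1.89. None of these 9 calls ended with any of the 8 arrays left out.

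Some smaller changes were among the 6 with the smallest p of the genes with a symbol, a call and no overlap of the groups. ACD6, a membrane protein gene that raises salicylic acid defence, read 9.87, 10.12, 9.93 and 10.43 against 7.58, 7.80, 7.14 and 7.99, and rose by 2.46 (SE 0.20, adjusted p = 3.25e-06). CES101, a lectin receptor kinase gene, rose by 2.45 (SE 0.21, adjusted p = 5.54e-06), and IDD11, a zinc-finger gene, by 1.40 (SE 0.12, adjusted p = 5.54e-06). For CES101, exon 2 replicate 4 read 5.80 and the other exon 2 arrays 4.84 to 4.99. MRD1 read 2.17, 2.09, 2.31 and 2.77 against 4.88, 4.51, 4.24 and 4.90 (adjusted p = 5.54e-06).

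**Figure D4:**
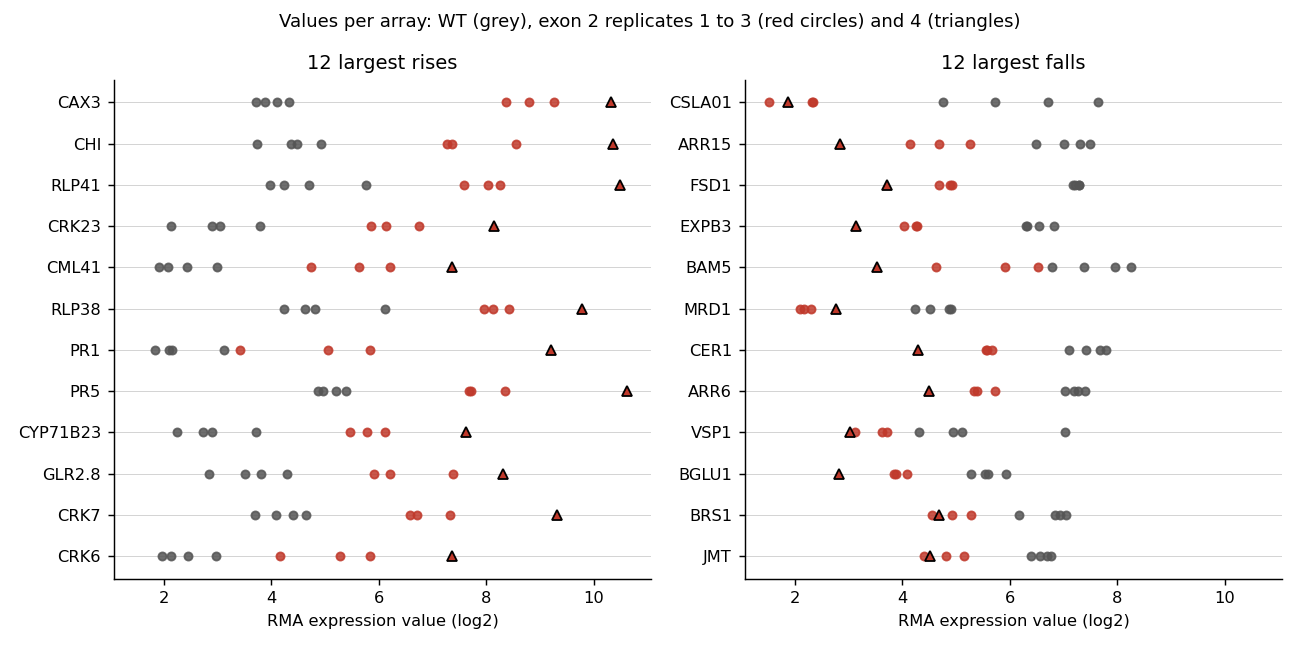
Expression values on the log2 scale per array for the 12 genes with a symbol that rose most and the 12 that fell most, with WT in grey, exon 2 replicates 1 to 3 as red circles and replicate 4 as triangles. No exon 2 array overlaps WT for any of the 24 genes, which the rule for naming them required; replicate 4 is at the outer end for CAX3 (10.32) and PR1 (9.21) but not for CSLA01 (1.88) or MRD1 (2.77).

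Gene lists are described by how many of their members were called, to be read against the 7.03% of all probe sets that were called higher and the 6.82% called lower, and by their median difference, against -0.01 for all probe sets. Lists and members were chosen with earlier results of these data known, so these counts describe the lists and are no independent support. Of 20 genes of salicylic acid synthesis and regulation, 12 rose and 0 fell, with a median of 1.40 (10 rose without exon 2 replicate 4). SARD1, a transcription factor gene for salicylic acid synthesis, read 6.98, 7.43, 7.08 and 8.59 against 5.04, 4.05, 4.43 and 5.15 and rose by 2.85 (adjusted p = 0.000617). DMR6, whose enzyme hydroxylates salicylic acid, read 8.82, 8.71, 9.25 and 10.58 against 6.18, 6.57, 6.01 and 7.33 and rose by 2.82 (adjusted p = 0.000134). For both genes replicate 4 was the highest exon 2 array and no group overlapped. NPR1, the salicylic acid receptor gene, rose by 1.04 (SE 0.16, adjusted p = 0.000695).

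The mean level of these 20 genes was 5.11, 5.18, 5.20 and 6.85 in the exon 2 line and 4.13, 3.96, 3.91 and 4.23 in WT. Exon 2 replicates 1 to 3 thus lay together, about 1 log2 unit over WT, and replicate 4 well over them. In exon 1 replicates 1 to 4 the mean of these 20 genes was 5.14, 6.50, 6.59 and 5.19. Of 12 salicylic acid output genes, 4 rose and 0 fell, with a median of 1.26, or 0.68 without replicate 4, where the count was also 4. Besides PR1 and PR5 these were WRKY70, which rose by 2.34 (adjusted p = 0.00462), and WRKY46, by 2.01 (adjusted p = 0.00127), both transcription factor genes. The mean level of the 12 output genes was 4.78, 4.67, 4.72 and 6.62 against 3.75, 3.48, 3.63 and 3.97. In exon 1 replicates 1 to 4 it was 4.62, 6.24, 6.43 and 4.63.

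Of 19 immune receptors and partners, 13 rose and 0 fell, with a median of 0.74 (9 rose without replicate 4). RLP23, whose protein recognises a peptide of microbial toxins, read 8.14, 8.20, 8.60 and 9.68 against 5.62, 5.70, 5.63 and 6.44 and rose by 2.81 (SE 0.29, adjusted p = 2.38e-05). RPS2, an intracellular receptor gene, rose by 1.41, the helper receptor gene ADR1-L1 by 1.39, and SOBIR1, the kinase partner of receptor-like proteins, by 1.198. Of 23 cysteine-rich receptor-like kinases, 13 rose and 0 fell, with a median of 1.10 (12 rose without replicate 4). CRK4 rose by 2.28 (adjusted p = 0.000175) and CRK18 by 1.45 (adjusted p = 0.000164). Of 6 CAX exchangers, 4 rose with and without replicate 4: besides CAX3 these were CAX5, by 1.31, CAX1, by 0.54, and CAX2, by 0.50.

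Genes of protein quality control rose in part, and these counts leaned on single arrays. Of 14 genes of N-degron recognition and ubiquitin, 6 rose and 0 fell (4 without replicate 4). BIG, whose protein carries an N-degron recognition domain, read 8.68, 8.60, 8.66 and 8.86 against 8.09, 7.88, 8.07 and 8.10. It rose by 0.67 (SE 0.11, adjusted p = 0.00158), and the polyubiquitin genes UBQ11, UBQ4 and UBQ10 rose by 1.15, 0.68 and 0.46. Of 29 genes of endoplasmic reticulum folding and stress, 9 rose and 0 fell, with a median of 0.72, but only 2 rose without exon 2 replicate 4, 4 without WT replicate 1, 5 without WT replicate 2 and 3 without WT replicate 3. Their median without replicate 4 was 0.44. CRT3, a calreticulin gene, read 8.04, 7.85, 8.15 and 9.28 against 6.65, 6.62, 6.56 and 7.14 and rose by 1.59 (adjusted p = 0.00137), and BZIP17, a stress-activated transcription factor gene, rose by 1.27 (adjusted p = 0.000425); both calls held without replicate 4.

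Of 28 autophagy genes, 10 rose and 0 fell, with a median of 0.24; 4 rose without exon 2 replicate 4 (median 0.14) and 5 without WT replicate 3. APG7, the activating enzyme gene of the pathway, rose by 0.75 (adjusted p = 0.00477), ATG10 by 0.53 (adjusted p = 0.00464) and APG8A by 1.22 (adjusted p = 0.00525). Of 45 genes of the 26S proteasome, 6 rose and 2 fell, and without exon 2 replicate 4 the counts were 0 and 1. They were 3 and 1 without exon 2 replicate 3 or WT replicate 1, 2 and 1 without WT replicate 2 or WT replicate 4, and 1 and 2 without WT replicate 3. PBE2, a core subunit gene, read 3.48, 4.46, 4.03 and 4.05 against 4.60, 4.74, 4.54 and 4.74 and fell by 0.65 (SE 0.17, adjusted p = 0.0186). Of 27 heat shock and cytosolic chaperone genes, 1 rose, HSP81-2 (0.75, adjusted p = 0.0475). That call ended without any of the 4 exon 2 arrays (adjusted p = 0.0842, 0.0827, 0.0796 and 0.0862 without replicates 1 to 4) and without WT replicate 1 (0.0635), 2 (0.082) or 3 (0.15), and the count for the list was 0 without exon 2 replicate 1 or 2 or WT replicate 1, 2 or 3.

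With all arrays, each list for modifying nascent proteins held at most 1 rise and 1 fall. Over all probe sets 7.03% were called higher and 6.82% lower, so counts this small in short lists do not set them apart. Of the 6 kept of 10 listed members of the cytosolic acetyltransferase complexes, NAA10 and HYPK included, 0 rose and 1 fell, NAA50, with the losses given above. Of 7 plastid acetyltransferases of the GNAT family, 0 were called; GNAT10 differed by -0.48 (adjusted p = 0.0822). Of 9 genes of methionine removal and N-myristoylation, 1 rose and 1 fell, and 2 fell without exon 2 replicate 2 or WT replicate 4. MAP2A, a methionine aminopeptidase gene, read 5.29, 5.33, 4.92 and 6.11 against 3.87, 4.08, 4.16 and 4.88 and rose by 1.17 (SE 0.26, adjusted p = 0.0086). PDF1B, a peptide deformylase gene, fell by 0.67 (SE 0.15, adjusted p = 0.00676).

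Lists of cytokinin, wall and photosystem genes held falls and no rises. Of 10 type-A cytokinin response regulators, 7 fell and 0 rose, with a median of -0.97 (4 fell without exon 2 replicate 4, median -0.73). ARR15 read 5.26, 4.68, 4.15 and 2.84 against 7.49, 7.31, 7.01 and 6.49, and ARR6 read 5.72, 5.34, 5.39 and 4.51 against 7.28, 7.40, 7.19 and 7.04. Replicate 4 was the lowest array for both, and the other exon 2 arrays also lay under all WT arrays. RR5 fell by 1.36 (adjusted p = 0.00149) and ARR7 by 1.24 (adjusted p = 0.00186), with and without replicate 4. Of 23 expansin and wall polysaccharide synthase genes, 10 fell and 0 rose, with a median of -0.49 (8 fell without replicate 4); EXPA4 and EXP3, both expansin genes, fell by 1.29 and 1.16.

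Of 36 photosystem and light-harvesting genes, 22 fell and 0 rose, with a median of -0.39. The count was 11 without exon 2 replicate 4, 14 without WT replicate 1 and 13 without WT replicate 3. PSBP-1, of the oxygen-evolving complex, read 9.86, 9.80, 9.77 and 9.53 against 10.42, 10.43, 10.55 and 10.26 and fell by 0.67 (SE 0.12, adjusted p = 0.00159). PSAN, of photosystem I, fell by 0.72 (adjusted p = 0.00655). For both PSBP-1 and PSAN every exon 2 array lay under every WT array; the groups did not overlap for 26 of the 36 genes, against 17.2% of all probe sets. Of 12 carbon fixation genes, 2 fell and 0 rose (1 without exon 2 replicate 3, exon 2 replicate 4, or WT replicate 1, 2 or 3, and 4 without exon 2 replicate 2), with GAPB falling by 0.51 (adjusted p = 0.00556). Of 13 chlorophyll synthesis genes, 2 fell and 0 rose (4 without exon 2 replicate 1): POR C by 1.04 (adjusted p = 0.00171) and PORB by 0.89 (adjusted p = 0.0111), both protochlorophyllide reductase genes.

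Of 15 senescence genes, 6 rose and 0 fell, with a median of 0.72; 3 rose without exon 2 replicate 4, WT replicate 2 or WT replicate 3, and 4 without exon 2 replicate 1 or 3 or WT replicate 1. SEN1 (AT4G35770) read 6.56, 7.58, 8.24 and 8.14 against 5.35, 5.06, 5.74 and 5.75 and rose by 2.16 (SE 0.29, adjusted p = 0.000235). ASN1, an asparagine synthetase gene, rose by 1.77 (adjusted p = 0.000142), with replicate 3 the highest exon 2 array. Of 10 mitochondrial stress genes, 4 rose and 1 fell; the counts were 2 and 1 without exon 2 replicate 3 or WT replicate 3, and 2 and 0 without exon 2 replicate 4 or WT replicate 1 or 2. BCS1 rose by 1.48 (adjusted p = 0.00298), and its WT mean lay in the dimmest range.

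Of 29 jasmonate genes, 6 fell and 0 rose, with a median of -0.50 (4 fell without exon 2 replicate 4 or WT replicate 4, and 9 without exon 2 replicate 2). JMT read 4.40, 4.82, 5.15 and 4.52 against 6.57, 6.39, 6.70 and 6.76, with exon 2 replicate 4 inside the range of its group, and JAZ3, a repressor gene, fell by 1.02 (adjusted p = 0.00238). Of 16 flavonoid and anthocyanin genes, 9 fell and 0 rose, with a median of -0.61; 4 fell without exon 2 replicate 4 and 5 without exon 2 replicate 3 or WT replicate 3. F3H, a flavanone hydroxylase gene, fell by 1.11 (adjusted p = 0.00109) and TT5, chalcone isomerase, by 0.97 (adjusted p = 0.0111). Of 13 genes of indole glucosinolates and camalexin, 1 rose and 3 fell, of which CYP79B3, an early enzyme of indole glucosinolate synthesis, fell by 1.53 (adjusted p = 0.00207). Without exon 2 replicate 3 or 4 or WT replicate 1, 2 or 3 the counts were 0 and 2, and without WT replicate 4 they were 2 and 2. Of 14 aliphatic glucosinolate genes, 1 rose and 2 fell, and the falls ran from 0 to 4 with 1 array left out: 4 without exon 2 replicate 2, 1 without exon 2 replicate 1 or WT replicate 4, and 0 without exon 2 replicate 3 or 4 or WT replicate 1 or 3. IMS2 rose by 1.60 (adjusted p = 0.00228) in all these settings.

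Metal and sulphur genes moved in both directions. Of 6 superoxide dismutases and their copper chaperone, 3 rose and 2 fell (2 and 2 without replicate 4). CCS, the copper chaperone gene, read 8.17, 8.15, 7.81 and 7.89 against 7.21, 6.78, 6.70 and 6.77 and rose by 1.14 (SE 0.13, adjusted p = 8.78e-05), while FSD2, a plastid iron superoxide dismutase gene, fell by 0.72 (adjusted p = 0.00888). Of 14 sulphur supply genes, 2 rose and 4 fell; the counts were 2 and 2 without exon 2 replicate 3, exon 2 replicate 4 or WT replicate 2. They were 0 and 4 without exon 2 replicate 1, 0 and 3 without exon 2 replicate 2 or WT replicate 1, 1 and 3 without WT replicate 3, and 1 and 2 without WT replicate 4. SULTR4;2, a vacuolar sulphate exporter gene, fell by 1.75 (adjusted p = 0.000103) and ATSDI1, a sulphur deficiency marker, by 1.88 (adjusted p = 0.00462).

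In lists of other stresses, 4.76% to 6.67% of the members rose and 0% to 6.25% fell with all arrays. These shares lie near or under the 7.03% and 6.82% of all probe sets. The 30 genes of abscisic acid and drought response held 2 rises and 1 fall. The risers were AAO3, an abscisic aldehyde oxidase gene, by 1.05 (adjusted p = 0.000901), and HAB1, a phosphatase gene of abscisic acid signalling, by 0.99 (adjusted p = 0.00127). The fall, COR15A, was called only with all arrays or without exon 2 replicate 3. Without exon 2 replicate 1, 4 of the list rose. Of 21 circadian clock genes, 1 rose, LHY by 0.41 (adjusted p = 0.00996), and 1 fell, RVE6 by 0.41 (adjusted p = 0.038). RVE6 remained called only without exon 2 replicate 1 or WT replicate 4, and 2 genes rose without exon 2 replicate 2 or 4. Of 16 hypoxia genes, 1 rose, AlaAT1 by 0.81 (adjusted p = 0.00936), and 1 fell, LBD41 by 0.74 (adjusted p = 0.032), which was not called without exon 2 replicate 3 or WT replicate 2, 3 or 4; 3 rose without exon 2 replicate 1 and 2 without exon 2 replicate 2 or WT replicate 4. Of 16 rapid stress and handling genes, 1 rose with all arrays and with any array left out, TCH3 by 0.96 (adjusted p = 0.00552), and their mean level was 4.40, 5.30, 4.67 and 4.81 against 4.35, 4.45, 4.39 and 4.66.

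Among markers of single leaf cell types, 44.4% of the guard and myrosin cell list and 41.7% of the vascular list fell. Over all probe sets 6.82% were called lower. The epidermis and dividing cell lists, at 7.69% and 8.33%, were close to that share. In bulk leaf RNA, fewer cells of a type and less RNA per cell cannot be told apart. Of 9 guard and myrosin cell markers, 4 fell and 0 rose, with a median of -0.42, and 4 fell without replicate 4. Their mean level was 5.54 to 5.66 in the exon 2 line and 5.87 to 6.16 in WT. The falls were the guard cell ion channel genes GORK, by 0.997 (adjusted p = 0.00073), KAT1, by 0.72 (adjusted p = 0.00174), and OZS1, by 1.06 (adjusted p = 0.00222), and the regulator gene FMA, by 0.50 (adjusted p = 0.0154; 0.0516 without WT replicate 1). Of 12 vascular markers, 5 fell and 0 rose (3 without exon 2 replicate 4 or WT replicate 3); the mean level was 4.58 to 4.85 against 4.96 to 5.27. SULTR2;1, a sulphate transporter gene of veins, fell by 0.89 (adjusted p = 0.000677) and CESA4, of secondary wall cellulose synthesis, by 1.02 (adjusted p = 0.00522).

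Of 13 epidermis and cuticle markers, 1 fell, CER1 (2 without exon 2 replicate 1), with a list mean level of 5.52 to 5.95 against 6.03 to 6.19. Of 12 markers of dividing cells, 1 fell, AUR1, a mitotic kinase gene, by 0.99 (adjusted p = 0.00761; 2 fell without exon 2 replicate 1), with a list mean level of 2.18 to 2.45 against 2.39 to 2.76. Of 9 flower markers, 2 fell, AG by 0.41 and LFY by 0.44, both near the dimmest range; 1 fell without exon 2 replicate 1, 3 or 4 or WT replicate 2 or 3, and 0 without exon 2 replicate 2 or WT replicate 1 or 4. Of 4 root markers, 0 were called. The part of these marker changes in the falls of wall, wax, vein and other genes was not tested.

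**Figure D5:**
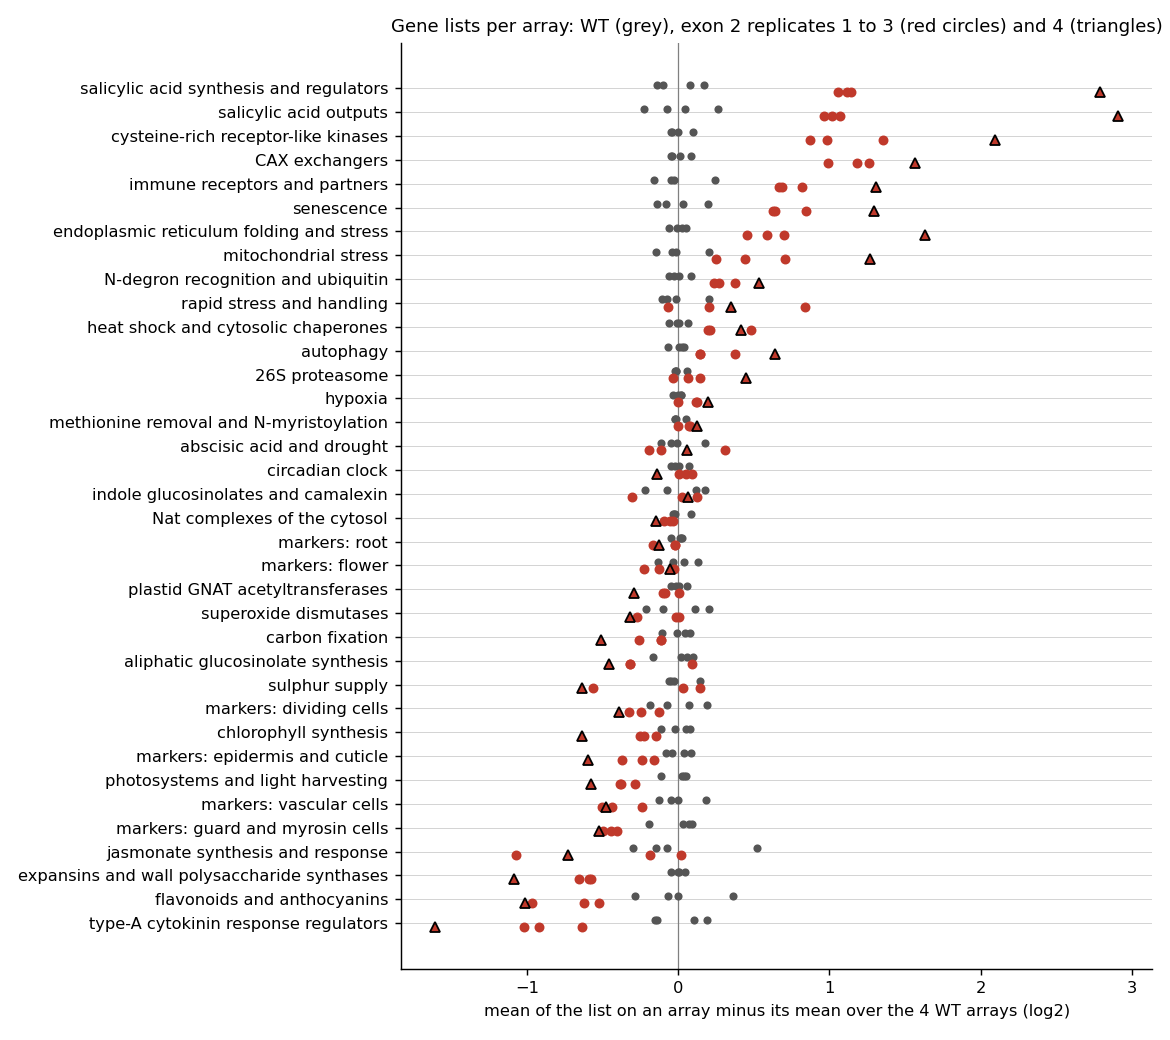
Mean log2 level of each of the 36 gene lists on each array, as the difference from its mean over the 4 WT arrays, with WT in grey, exon 2 replicates 1 to 3 as red circles and replicate 4 as triangles. By the mean of the 4 exon 2 arrays both salicylic acid lists lie highest, with replicate 4 far to the right of the other exon 2 arrays (6.85 against 5.11 to 5.20 in level for synthesis and regulators), and the type-A response regulators lie lowest, from 4.47 to 5.44 against 5.93 to 6.27 in WT.

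Replicate 4 added calls more than it removed them. Of the probe sets called with it, 1799 were not called without it, and 44 were called only without it. Among the genes called only with it, AIG1, an immune-induced gene, read 5.73, 5.19, 5.56 and 8.93 against 3.45, 3.06, 3.71 and 4.95. AIG1 rose by 2.56 (adjusted p = 0.0344) with it and differed by 1.70 (0.112) without it; the call also ended without WT replicate 1 (0.0803), 2 (0.09) or 3 (0.0746). BIP3, a stress-induced chaperone gene of the endoplasmic reticulum, read 5.13, 5.03, 4.80 and 7.87 against 3.73, 3.11, 3.33 and 3.07. All 4 exon 2 arrays of BIP3 lay above WT, and the difference was 2.40 (adjusted p = 0.0417) with replicate 4 and 1.68 (0.148) without it, the call ending also without WT replicate 1 (0.0639), 2 (0.0859), 3 (0.0822) or 4 (0.0784). SAUR68, of an auxin-responsive family, fell by 1.48 (adjusted p = 0.0134), and by 1.19 without replicate 4 (0.0518).

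For the genes named here that were called only without replicate 4, this array lay nearer to WT than the others, or beyond it. That position follows largely from the rule that picked these genes. ABCB14 read 7.15, 6.86, 7.14 and 5.71 in the exon 2 line and 6.50, 6.45, 5.83 and 6.33 in WT. Its difference was 0.44 with all arrays (adjusted p = 0.331) and 0.77 without replicate 4 (0.0346). CGA1, a GATA factor gene tied to chloroplast development and cytokinin, read 8.40, 7.91, 7.68 and 6.91 against 7.31, 7.28, 6.76 and 7.22. Replicate 4 lay inside the WT range, and CGA1 differed by 0.59 with it (adjusted p = 0.182) and by 0.86 without it (0.049). MAKR6 and LAF1 differed by -0.45 and -0.46 with it and by -0.69 (adjusted p = 0.03) and -0.62 (0.0103) without it.

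The exon 2 line was also set against amiNAA10, the line with less NAA10 transcript. The exon 2 arrays had more transcript of several response regulator and photosystem genes than amiNAA10, and less of others, among them the nitrilase gene NIT2 and the epidermal marker PDF1. NAA10 itself averaged 4.95 ± 0.16 (SD, n = 4) in the exon 2 line and 2.89 ± 0.16 in amiNAA10, a difference of 2.07 (SE 0.12, adjusted p = 7.62e-08). In all, 1824 probe sets were called (6.56%), 1006 higher (3.62%) and 818 lower (2.94%) in the exon 2 line. The total was 944 without exon 2 replicate 1, 1074 without exon 2 replicate 2, 2905 (10.4%) without exon 2 replicate 4, 848 without amiNAA10 replicate 2 and 924 without amiNAA10 replicate 3.

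Among the largest differences, MIR841a, a microRNA precursor gene, averaged 5.84 ± 0.25 in the exon 2 line and 3.46 ± 0.73 in amiNAA10 (2.38, SE 0.26, adjusted p = 0.000173). CIPK20, a protein kinase gene, was 2.19 higher (adjusted p = 0.00405), LEA3, of the late embryogenesis abundant family, 2.15 higher and BT1, of the BTB family, 1.97 higher. PDF1, an epidermal marker, averaged 1.79 ± 0.19 in the exon 2 line, in the dimmest range, and 5.40 ± 1.37 in amiNAA10 (-3.61, SE 0.43, adjusted p = 0.000351). The nitrilase gene NIT2 was lower by 2.56 (-2.56, adjusted p = 0.00969), the lipase gene LTL1 by 2.44 (-2.44, adjusted p = 0.00724) and the efflux carrier gene DTX1 by 2.42 (-2.42, adjusted p = 0.00443). Each of these 8 calls held with any of the exon 2 or amiNAA10 arrays left out. NIT2 was also called higher in the exon 2 line than in WT, by 2.43 (adjusted p = 0.00745), although exon 2 replicate 2 (2.28) lay under WT replicate 4 (2.60), while PDF1, LTL1 and DTX1 differed from WT by -0.22, -0.08 and -0.54 and were not called.

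Of the 10 type-A response regulators, 7 were higher in the exon 2 line than in amiNAA10. Of these regulators, 4 were higher without exon 2 replicate 1, exon 2 replicate 2 or amiNAA10 replicate 2, and 8 without exon 2 replicate 4. Their median differences from WT, which share the WT arrays, were -0.97 in the exon 2 line, -1.16 in the exon 1 line and -2.16 in amiNAA10. Of the 36 photosystem genes, 12 were higher than in amiNAA10, with 17 without exon 2 replicate 4 and 14 without amiNAA10 replicate 4. The count was 2 without exon 2 replicate 1 or amiNAA10 replicate 2, and 4 without amiNAA10 replicate 3. It was 5 without exon 2 replicate 3 and 6 without exon 2 replicate 2. Of the 14 sulphur supply genes, 7 were higher, or 2 without exon 2 replicate 1 or 2 or amiNAA10 replicate 1 or 3. Of the 20 salicylic acid synthesis and regulator genes, 0 were called in either direction with all arrays, and 2 were lower without exon 2 replicate 4; their median differences from WT were 1.40, 1.52 and 1.63 in the exon 2 line, the exon 1 line and amiNAA10. Of the 23 cysteine-rich receptor-like kinases, 1 was higher and 3 lower than in amiNAA10. The counts were 1 and 10 without exon 2 replicate 4, 1 and 1 without exon 2 replicate 2 or amiNAA10 replicate 1 or 3, 0 and 1 without amiNAA10 replicate 2, and 0 and 2 without exon 2 replicate 1. Among the 19 immune receptors 1 was lower, and 7 without exon 2 replicate 4.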

How the data were processed

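The authors deposited log2 values, 1 for each probe set on each array. Per the submitters' processing notes they come from RMA (robust multi-array averaging). The sources used here do not give the array design, software version or probe annotation. RMA includes background correction, quantile normalization and a robust summary of probes, so a shift of all transcripts in 1 genotype would be removed: sorted values of any 2 arrays differed by at most 0.0019. The deposited values run from 0.60 to 13.49. Arrays have no read depth; their number, 4 per group, limits the precision, and no detection call was used here.

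Groups were taken from the sample labels. A single linear model with 1 mean for each genotype was fitted to the 16 arrays. It used limma 3.58.1 in R 4.3.3 (lmFit and eBayes, no trend, robust option or block, no filter). For the exon 2 line 3 contrasts were tested two-sided: against WT, the exon 1 line and amiNAA10. The exon 1 line and amiNAA10 were also set against WT in the same fit. Benjamini-Hochberg adjustment ran over 27826 probe sets, and an adjusted p under 0.05 was called. HYPK, NAA10, NAA15 and NAA50 were also compared by two-sided exact permutation tests of the means (scipy 1.17.1).

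Locus codes were looked up in a RefSeq table of TAIR10.1, used for symbols and neighbour order only: 27241 probe sets matched, 585 did not and 10556 have a symbol of their own. The 36 gene lists held 608 members by locus, of which 10 were dropped because the table gives their listed name otherwise. The members, lists and tests were chosen with earlier results of these data known. Named genes were HYPK, NAA10, NAA15 and NAA50; the 12 largest rises and 12 largest falls with a symbol, a call and no overlap of the groups; the 6 smallest p; the 4 largest each way against each other line; up to 4 members per list by p; 8 loci on each side of HYPK; and 5 each way called only with or only without exon 2 replicate 4. AT4G10695, its neighbours, DD18 and the order in which results are told were chosen after values were seen.

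On simulated data for the exon 2 line against WT, with 27826 genes and 50 changed at each size, the fit recovered 14% of changes of 0.5, 72% of 1, 98% of 2 and 100% of 3 on the log2 scale, with 1 false call. The simulation changed 200 genes, whereas 3852 probe sets were called in the data. Adjustment is stricter where fewer genes change, so these shares may not carry over. Alternatives were a fit on only the arrays compared, a replicate block, the intensity trend with the robust option, array weights, leaving out the dimmest 30% of probe sets, leaving out each array, and, added after seeing the data, leaving out exon 2 replicate 4 in a fit on only the other 7 arrays of both groups.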

Additional observations from a re-analysis of the deposited data

Results flagged for a closer look

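Levels of the named genes and list means were examined for 1 array far from the other 3 of its group, by the gap to its nearest neighbour divided by the range of the group, against Dixon's 95% critical value for 4 arrays. Of 488 such tests 31 passed (6.35%), while chance flags about 1 in 20 groups, and 13 of them were in the exon 2 line, 11 of these in replicate 4. The gap ratios of exon 2 replicate 4 were 0.950 for the mean of the salicylic acid synthesis and regulator list (6.85, the others 5.11 to 5.20), 0.946 for the salicylic acid outputs (6.62, the others 4.67 to 4.78) and 0.843 for the expansin and wall list (5.11, the others 5.54 to 5.62). For single genes they were 0.923 for Hsp70-2, 0.916 for CER1 (4.29, the others 5.55 to 5.67), 0.910 for ADR1-L1, 0.906 for BCS1, 0.893 for BIP3, 0.856 for BZIP17 and for AIG1, and 0.847 for CES101. Replicate 2 of the exon 2 line stood apart for CESA4 (0.927) and replicate 1 for APL (0.839).

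In WT, replicate 4 stood apart for NIT2 (0.938), RLP23 (0.902), PSAN (0.880), UBQ10 (0.857), CRT3 (0.845), JAZ3 (0.838) and the mean of the methionine removal list (0.908). Replicate 3 did so for AT3G66652 (0.843), RR5 (0.839), RPN12a (0.832), CGA1 (0.831) and the mean of the Nat complexes (0.882). Replicate 2 did so for BIG (0.853) and the mean of the sulphur supply list (0.834), and replicate 1 for RWA2 (0.863), UBQ4 (0.861), CCS (0.853) and the mean of the proteasome list (0.899).

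Both loci called between the HYPK lines are listed here because the test of the difference itself passed: AT3G06600 was 1.98 and AT4G10695 2.27 higher on the log2 scale in the exon 2 line than in the exon 1 line.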

How the results depend on the processing

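Against WT, a fit on only the arrays compared gave 2477 called probe sets (1233 higher, 1244 lower), and without exon 2 replicate 4 on the other 7 arrays of both groups, an alternative chosen after seeing the data, 1545 (840 and 705). With 1 array left out the counts were 2097 to 3932 called, 1117 to 1964 higher and 980 to 1968 lower. Against amiNAA10, only the arrays compared gave 805, and leaving out 1 array gave 848 to 2905. The trend and robust option, array weights and leaving out the dimmest 30% kept these counts within 1.5 times of 3852 and 1824, and the calls against the exon 1 line stayed at 2 in them. With the replicate number as a block the counts were 3720, 2 and 1794. The labels do not say whether the numbers pair the samples. Deviations of same-numbered exon 2 and WT arrays correlated at -0.01 to 0.19, and the own number was best in 2 of 4. So few arrays cannot decide whether samples were paired. HYPK stayed uncalled against WT in every setting. Of 208 named genes 136 were called, of which 101 kept the call with any exon 2 or WT array left out, 30 lost it without exon 2 replicate 4, and 0 changed sign in any setting. The cause of these shifts was not tested. Few arrays and the dim range limit small changes, of which the simulation recovered 14% at 0.5 on the log2 scale. That share may not carry over, since the simulation changed far fewer genes than were called here.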
